A study of Drosophila melanogaster with 11 samples.

Results

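The 10 genes described here are markers of Drosophila hemocytes, the blood cells of the fly. They were chosen by name, as the entries of the deposited count table whose symbol is Hml, Pxn, NimC1, eater, crq, atilla, srp, lz, PPO1 or PPO2, and all 10 were found among its 16034 entries. RNA had been taken from 2 larval tissues that are not blood, and blood cells stick to both, so these genes are followed library by library. The 4 groups, all of the third larval instar, were salivary glands of the mutant strain w;dCap-D3c07081/c07081 (3 libraries), salivary glands of w1118 (3 libraries), wing discs of the mutant (2 libraries) and wing discs of w1118 (3 libraries). Stocks were kept at 25 C. Each salivary library pooled 50 tissues and each wing library 150. The salivary libraries were non-directional and the wing libraries directional, so tissue and library kind cannot be told apart.

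Most larval hemocytes are plasmatocytes, macrophage-like cells that engulf bacteria and dying cells and that lay down matrix. Crystal cells carry prophenoloxidase, the enzyme that starts melanin formation at wounds, and rupture to release it. Lamellocytes are large flat cells that encapsulate parasites and are rare in healthy larvae. dCap-D3 belongs to condensin II, which compacts and organises chromosomes, and the mutant larvae carry the allele in all their cells, blood cells included.

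Cap-D3 itself stood at 0.0516, 0.0553 and 0.0664 CPM in mutant salivary replicates 1 to 3, against 4.82, 4.33 and 5.205 CPM in wild type, and at 2.93 and 2.61 CPM in mutant wing discs, against 17.1, 12.9 and 25.9 CPM in wild type. CPM are counts scaled to a common library size within each tissue. In edgeR's quasi-likelihood test Cap-D3 passed in salivary glands (log2 fold change -6.33 ± 0.22, SE, adjusted p = 1.43e-04). In wing discs Cap-D3 did not pass that test (-2.75 ± 0.38, adjusted p = 0.0916), though its groups did not overlap. The libraries held 52483185 to 157639957 counts, the largest being wing wild-type replicate 3, which carries library number 59 where the other 10 are numbered 22 to 31. Genes that mark the tissues themselves were present as labelled. A list of 7 salivary gland genes summed to 177757 to 234024 CPM in mutant salivary glands, against 258029 to 322738 CPM in wild type, and to at most 618 CPM in wing libraries. A list of 8 wing disc genes summed to 965 to 1031 CPM in mutant wing discs, against 537 to 1841 CPM in wild type, and in salivary glands to 66.0 to 68.5 CPM in the mutant, against 79.4 to 95.2 CPM in wild type. Fat body transcripts were also abundant in salivary libraries, where 8 such genes summed to 96047 to 153145 CPM in the mutant, against 73490 to 111754 CPM in wild type. Gut transcripts stood apart in salivary wild-type replicates 1 and 2, where the gut list summed to 834 and 7597 CPM, against 3.26 CPM in replicate 3 and 0.945 to 2.14 CPM in the mutant.

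In mutant salivary glands 4 of the 10 hemocyte markers fell and 1 rose. Those that fell were Hml, Pxn, PPO2 and atilla, and the one that rose was NimC1. These 5 calls (edgeR's quasi-likelihood test, adjusted after Benjamini and Hochberg, threshold 0.05) compare with 10.7% of all 9006 genes tested, of which 4.96% were lower and 5.71% higher. The median log2 fold change was -1.27 over the 10 markers and -0.04 over all genes tested. In mutant wing discs the same test called 0 of 9 tested markers, against 0.475% of all genes. At an unadjusted p under 0.05 it listed 6 of the 9, against 9.54% of all genes, and DESeq2 called 6, against 6.02% of all genes. The median there was -1.51 over the markers and -0.03 over all genes. A lower level can mean fewer blood cells on the tissue, less transcript in each cell, or less from other cells of the sample. These readings cannot be told apart in pooled tissue, and none was tested. Separate cultures or crosses behind the libraries of a group are not named in the labels, so p-values measure only the spread between these samples.

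**Figure D1:**
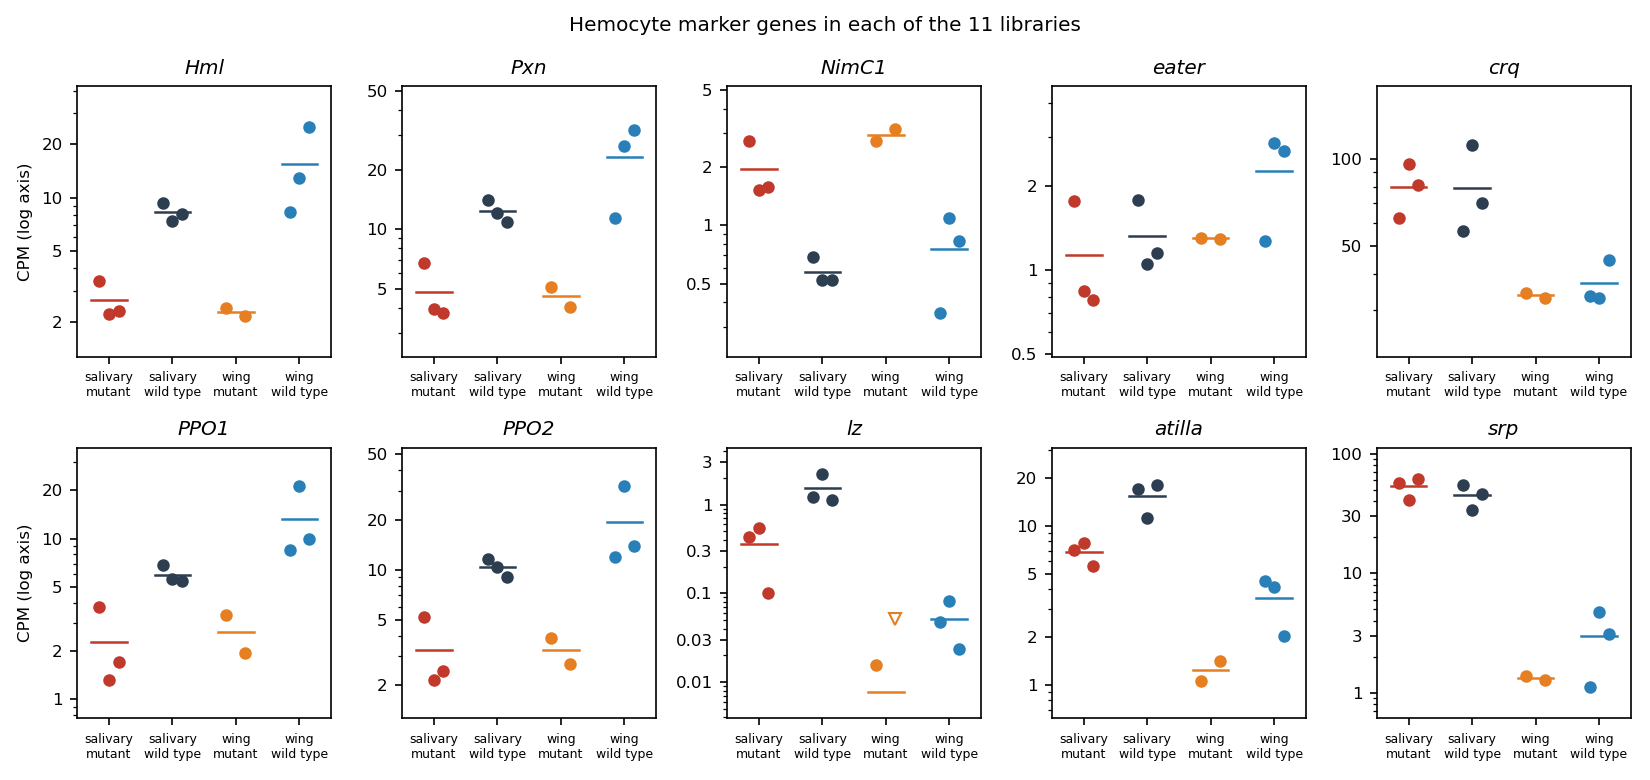
CPM of each hemocyte marker (log axis, with its own scale in each panel) in the 11 libraries, 1 point per library, with a horizontal line at the group mean. The open triangle for lz is wing mutant replicate 2, which held 0 counts and is drawn at the 0.0519 CPM that 3 counts would give. Mutant points lie below the wild-type points of the same tissue for Hml, Pxn, PPO1, PPO2 and atilla, and above them for NimC1.

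Per length of exon, crq had the highest level of the 10 in all 4 groups, with 28.0 ± 5.85 RPKM in mutant salivary glands and 27.8 ± 10.1 RPKM in wild type (SD, n = 3 each), and 11.9 ± 0.367 RPKM in mutant wing discs (n = 2) and 13.0 ± 2.28 RPKM in wild type (n = 3). RPKM are CPM per kilobase of exon. In salivary wild type the order ran crq, atilla, srp, PPO2, PPO1, Pxn, Hml, lz, eater, NimC1. Neighbours in that order whose libraries overlapped were crq with atilla, PPO1 with Pxn, Hml with lz and lz with eater. NimC1 was last there with 0.175 ± 0.0281 RPKM, and was the seventh of 10 in mutant salivary glands with 0.590 ± 0.208 RPKM (SD, n = 3 each). In wing discs NimC1 took the fifth place in the mutant with 0.891 ± 0.0836 RPKM (n = 2) and the ninth in wild type with 0.231 ± 0.115 RPKM (n = 3). In wing wild type every pair of neighbours overlapped except NimC1 and lz, and lz was last in both wing groups. In both mutant groups Hml stood next to last, above lz.

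Hml and Pxn, secreted products of plasmatocytes, had lower values in every mutant library than in the wild-type libraries of the same tissue, and both fell in salivary glands. Hml (FBgn0029167, 3L, 13846054 to 13860001, build BDGP6) encodes hemolectin, a clotting protein and the usual driver of plasmatocyte transgenes. In salivary glands Hml had 199, 160 and 139 counts in mutant replicates 1 to 3, or 3.42, 2.21 and 2.31 CPM, against 518, 412 and 464 counts, or 9.31, 7.44 and 8.08 CPM, in wild type. Every mutant library lay below every wild-type library, and the spread within each genotype was small beside the gap. The log2 fold change was -1.65 ± 0.21 (SE, adjusted p = 0.00739), a level 3.14-fold lower in the mutant. The call held in 5 of the 6 fits that left out 1 library and ended without mutant replicate 3, at an adjusted p of 0.0533.

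In wing discs Hml had 2.38 and 2.16 CPM in the mutant, against 8.29, 12.9 and 25.0 CPM in wild type. The mutant libraries were close to each other, while the wild-type libraries spread widely, with the deep replicate 3 highest, but did not overlap the mutant. The log2 fold change was -2.76 ± 0.56 and did not pass the test (adjusted p = 0.191). Without wild-type replicate 3 the log2 fold change was -2.25 (adjusted p = 0.127).

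Pxn (FBgn0011828, 3L, 2601455 to 2630064) encodes peroxidasin, a matrix peroxidase that crosslinks collagen IV. In salivary glands Pxn stood at 6.74, 3.97 and 3.79 CPM in the mutant, against 14.1, 12.1 and 10.8 CPM in wild type. The groups did not overlap, and Pxn fell with a log2 fold change of -1.36 ± 0.25 (adjusted p = 0.0256). That call held in 1 of 6 fits without 1 library, the one without mutant replicate 1, and reached 0.113 without mutant replicate 3. In wing discs Pxn had 5.09 and 4.06 CPM in the mutant, against 11.4, 26.2 and 31.7 CPM in wild type. The groups again did not overlap, and the log2 fold change of -2.34 ± 0.51 did not pass the test (adjusted p = 0.214). Exons of Pxn overlap CG16986 on the opposite strand, and reads of that overlap cannot be set apart in the non-directional salivary libraries. Exons of Pxn also overlap a non-coding RNA gene on the same strand, whose reads neither kind of library sets apart.

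NimC1 went the other way from Hml and Pxn. NimC1 (FBgn0259896, 2L, 13973158 to 13976769) is a phagocytosis receptor of the Nimrod family on the plasmatocyte surface, where it is the antigen of a widely used plasmatocyte antibody. In salivary glands NimC1 had 159, 110 and 95 counts in mutant replicates 1 to 3, or 2.73, 1.52 and 1.58 CPM, against 38, 29 and 30 counts, or 0.683, 0.524 and 0.522 CPM, in wild type. The lowest mutant library was above the highest wild-type library. NimC1 rose with a log2 fold change of 1.75 ± 0.33 (adjusted p = 0.0271), a 3.35-fold higher level. The call held in 1 of 6 fits without 1 library, the one without mutant replicate 1, and reached 0.106 without wild-type replicate 2.

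In wing discs NimC1 had 177 and 181 counts in the mutant, or 2.74 and 3.13 CPM, against 22, 67 and 141 counts, or 0.351, 1.10 and 0.829 CPM, in wild type. Both mutant libraries exceeded all wild-type libraries, also wild-type replicate 3 with its larger total. The log2 fold change of 1.95 ± 0.53 was close to the salivary one and did not pass the test (adjusted p = 0.314). NimC1 was the one marker of the 9 tested with a positive log2 fold change in wing discs. No annotated gene overlaps NimC1.

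The other phagocytosis receptors did not differ beyond their spread. eater (FBgn0243514, 3R, 27095867 to 27099679) is a Nimrod-type receptor for bacteria that also anchors plasmatocytes to the body wall. In salivary glands eater stood at 1.77, 0.844 and 0.780 CPM in the mutant, against 1.78, 1.05 and 1.15 CPM in wild type. The groups overlapped (log2 fold change -0.23 ± 0.42, adjusted p = 0.749). In wing discs eater had 1.30 and 1.30 CPM in the mutant, against 1.28, 2.87 and 2.67 CPM in wild type, and the groups overlapped too (-0.81 ± 0.46, adjusted p = 0.833).

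crq (FBgn0015924, 2L, 448254 to 453024) encodes croquemort, a scavenger receptor for apoptotic cells. In salivary glands crq stood at 62.5, 95.7 and 80.9 CPM in the mutant, against 56.0, 112 and 70.2 CPM in wild type. The mutant libraries lay inside the wild-type range, and the log2 fold change was 0.00 ± 0.30 (adjusted p = 0.995). In wing discs crq had 34.5 and 33.0 CPM in the mutant, against 33.7, 33.1 and 44.7 CPM in wild type, with a log2 fold change of -0.14 ± 0.20 (adjusted p = 0.9997). Exons of crq overlap ex on the opposite strand.

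The crystal cell markers PPO1 and PPO2 were lower in every mutant library than in the wild-type libraries of the same tissue, and PPO2 passed the test in salivary glands. Both encode prophenoloxidases made by crystal cells. PPO2 (FBgn0033367, 2R, 9042261 to 9044709) stood at 5.17, 2.17 and 2.44 CPM in mutant salivary glands, against 11.6, 10.4 and 9.05 CPM in wild type. Mutant replicate 1 was the highest of its group and still below all wild-type libraries. PPO2 fell with a log2 fold change of -1.67 ± 0.35 (adjusted p = 0.0371). The call held in 1 of 6 fits without 1 library, reached 0.157 without mutant replicate 3, and also ended on plain library sizes, at 0.0561, and with no filter on low counts, at 0.054.

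PPO1 (FBgn0261362, 2R, 17887220 to 17889973) had 3.76, 1.31 and 1.71 CPM in mutant salivary glands, against 6.81, 5.58 and 5.41 CPM in wild type. The libraries did not overlap, mutant replicate 1 was again the highest of its group, and the log2 fold change of -1.40 ± 0.41 did not pass the test (adjusted p = 0.0813). Without mutant replicate 1 the adjusted p was 0.0112.

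In wing discs PPO2 had 3.87 and 2.68 CPM in the mutant, against 12.0, 32.0 and 14.0 CPM in wild type. PPO1 had 3.34 and 1.94 CPM in the mutant, against 8.54, 21.4 and 9.89 CPM in wild type. For both genes the groups did not overlap and wild-type replicate 2 was far above the other wild-type libraries, which was not so for Hml, highest in replicate 3. The log2 fold change was -2.56 ± 0.56 for PPO2 (adjusted p = 0.214) and -2.33 ± 0.56 for PPO1 (adjusted p = 0.257). Without wild-type replicate 2 they were -2.00 and -1.81. Counts of PPO1 per 100 counts of PPO2 were 60.5 to 72.8 in mutant salivary glands, against 53.5 to 59.8 in wild type, and 72.3 to 86.4 in mutant wing discs, against 66.8 to 71.2 in wild type. The ratio did not overlap between genotypes in either tissue. PPO1 and PPO2 are paralogs between which reads may be shared, and the sources used here do not say how such reads were counted. PPO1 lies across from Elk on the opposite strand, without overlap of their exons.

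lz (FBgn0002576, X, 9284649 to 9303636), the Runx factor that specifies crystal cells, had 25, 40 and 6 counts in mutant salivary glands, against 68, 123 and 65 counts in wild type. These are 0.430, 0.553 and 0.0996 CPM in the mutant, against 1.22, 2.22 and 1.13 CPM in wild type, without overlap. The log2 fold change of -2.07 ± 0.65 did not pass the test (adjusted p = 0.0974). In wing discs lz had 1 and 0 counts in the mutant, against 3, 5 and 4 counts in wild type, too few for the test. The CPM did not overlap between genotypes, but so few counts cannot size a difference in wing discs. A count of 0 allows up to 3 counts, or 0.0519 CPM in that library. That limit is inside the wild-type range of 0.0235 to 0.0819 CPM. This limit covers counting error only.

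atilla was lower in every mutant library than in the wild-type libraries of its tissue, whereas srp overlapped between genotypes in both tissues. atilla (FBgn0032422, 2L, 12175451 to 12177886) encodes a membrane-anchored protein that is the common lamellocyte marker. It had 7.06, 7.81 and 5.56 CPM in mutant salivary glands, against 17.1, 11.2 and 18.0 CPM in wild type. The groups did not overlap, and atilla fell with a log2 fold change of -1.18 ± 0.22 (adjusted p = 0.0257). The call held in 1 of 6 fits without 1 library, the one without wild-type replicate 2, and reached 0.106 without mutant replicate 3. In wing discs atilla had 1.07 and 1.42 CPM in the mutant, against 4.50, 4.11 and 2.03 CPM in wild type, without overlap (log2 fold change -1.51 ± 0.47, adjusted p = 0.378). atilla overlaps bru1 on the opposite strand, with no exons in common.

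srp (FBgn0003507, 3R, 15986152 to 16004081) encodes serpent, a GATA factor needed for both blood cells and fat body. In salivary glands srp stood at 56.9, 41.5 and 61.7 CPM in the mutant, against 54.5, 34.2 and 46.0 CPM in wild type, and the groups overlapped (log2 fold change 0.25 ± 0.22, adjusted p = 0.501). The fat body list was lowest in mutant replicate 2 and wild-type replicate 2, as srp was, and srp had 0.0372 to 0.0443 counts per 100 fat body counts in the mutant, against 0.0456 to 0.0487 in wild type. In wing discs srp had 1.38 and 1.28 CPM in the mutant, against 1.116, 4.70 and 3.07 CPM in wild type, with overlap (-1.16 ± 0.66, adjusted p = 0.833). There the fat body list summed to 4809 and 1904 CPM in mutant replicates 1 and 2, against 1899, 17304 and 3096 CPM in wild-type replicates 1 to 3, and srp was lowest and highest in the same wild-type libraries. The part of fat body RNA in the levels of srp was not tested. srp also shares exons with a non-coding RNA gene on its own strand.

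**Figure D2:**
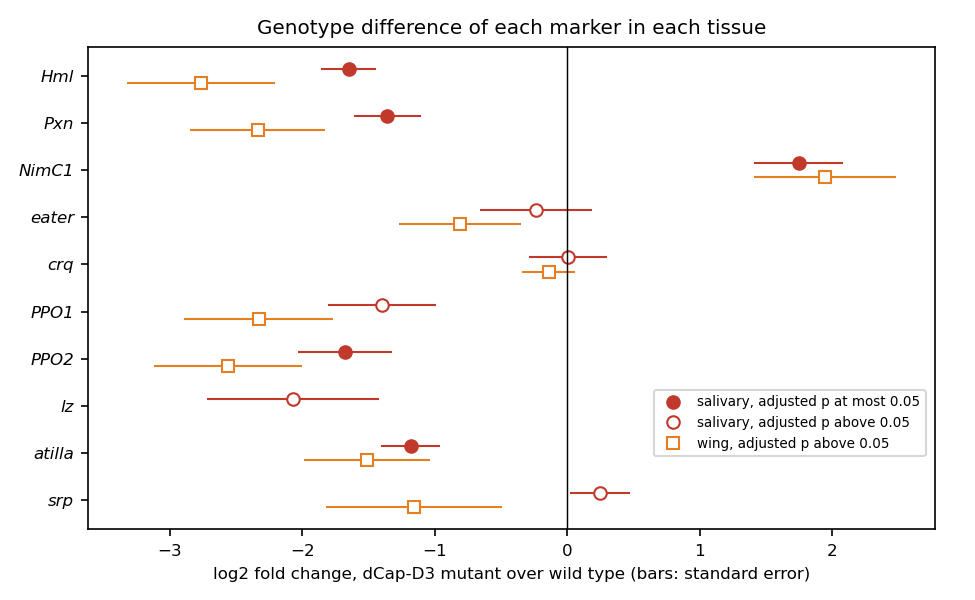
Log2 fold change of dCap-D3 mutant over wild type for each marker in salivary glands (circles) and wing discs (squares), with bars of 1 standard error. Filled symbols passed an adjusted p of 0.05 in edgeR's quasi-likelihood test. The salivary calls are Hml, Pxn, PPO2 and atilla below 0 and NimC1 above it, and no wing marker passed. lz has no wing value because it did not pass the filter on low counts.

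Across the markers, 7 of 10 had salivary libraries that did not overlap between genotypes, against 36.4% of all genes tested. Of these 6 were lower in the mutant, against 18.7% of genes, and 1 was higher, against 17.7%. In wing discs 6 of the 9 tested markers did not overlap, against 26.1% of genes, with 5 lower against 11.7% and 1 higher against 14.4%. The lower ones in wing discs were Hml, Pxn, PPO1, PPO2 and atilla, and NimC1 was the higher one. In the authors' deposited table, at a false discovery rate of at most 0.05, 7 markers were listed in salivary glands, 1 higher and 6 lower, against 16.5% of its genes. For wing discs the authors' deposited table listed 6, 1 higher and 5 lower, against 13.1%. DESeq2 called 7 in salivary glands, adding PPO1 and lz, against 23.3% of genes.

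The salivary count of markers depended on single libraries. It was 5 without mutant replicate 1, with PPO1 in and atilla out, 2 without wild-type replicate 2, and 1 without wild-type replicate 1, wild-type replicate 3 or mutant replicate 2. It was 0 without mutant replicate 3. Calls over all genes moved too, from 961 of 9006 genes with all libraries to 1071 of 9390 without mutant replicate 1. They were 359 of 9375 without wild-type replicate 2, 543 of 9185 without wild-type replicate 1 and 578 of 9508 without wild-type replicate 3. Without mutant replicate 2 they were 361 of 9498, and without mutant replicate 3 they were 310 of 9502. With both wild-type libraries of high gut level left out, a choice made after seeing the data, 0 markers were called, 1 wild-type library remained, and the lone library was taken to vary like the others. The log2 fold change of Hml was then -1.61 (adjusted p = 0.147) and that of NimC1 1.89 (adjusted p = 0.306). A fit over all 11 libraries called 2 of 10 markers in salivary glands, Hml and NimC1, against 909 of 10850 genes. In wing discs that fit called 3 of 10, Hml, Pxn and PPO2, against 140 of 10850 genes.

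Ratios within a library do not depend on how libraries are scaled. They combine the changes of Hml and of the other gene given above, so they restate those values on another scale and are no separate evidence. For every 100 Hml counts there were 68.3 to 79.9 NimC1 counts in mutant salivary glands, against 6.47 to 7.34 in wild type, so the mean ratio was 10.4 times higher in the mutant. In wing discs there were 115 to 145 in the mutant, against 3.31 to 8.50 in wild type, 24.3 times higher. The ranges did not overlap in either tissue. An exact permutation test of these ratios could not reach the threshold on so few libraries. The smallest two-sided p of such a test is 0.1 for 3 against 3 and 0.2 for 2 against 3. eater, whose own level did not pass the test, was higher per 100 Hml counts because Hml, the denominator, was lower in every mutant library, with 33.8 to 51.8 in mutant salivary glands, against 14.1 to 19.1 in wild type, and 54.5 to 60 in mutant wing discs, against 10.7 to 22.2 in wild type.

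PPO1, PPO2, lz and atilla had ratios to Hml whose ranges overlapped between genotypes in both tissues. Overlap of so few libraries does not show that the ratios were equal. The mutant mean ratio of atilla was 1.44 times wild type in salivary glands and 1.76 times in wing discs. That of lz was 0.735 and 0.746 times. PPO2 had 98.1 to 151 counts per 100 Hml counts in mutant salivary glands, against 112 to 140 in wild type. In wing discs PPO2 had 124 to 162 in the mutant, against a wide 56.0 to 248 in wild type. Pxn had 164 to 197 in mutant salivary glands, against 134 to 162 in wild type, without overlap, and 188 to 214 in mutant wing discs, against 127 to 203 in wild type, with overlap. The ratios of crq and srp, which did not pass the test either, were likewise higher in the mutant in both tissues over the lower Hml counts. For srp they were 1664 to 2676 in mutant salivary glands, against 459 to 585 in wild type.

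**Figure D3:**
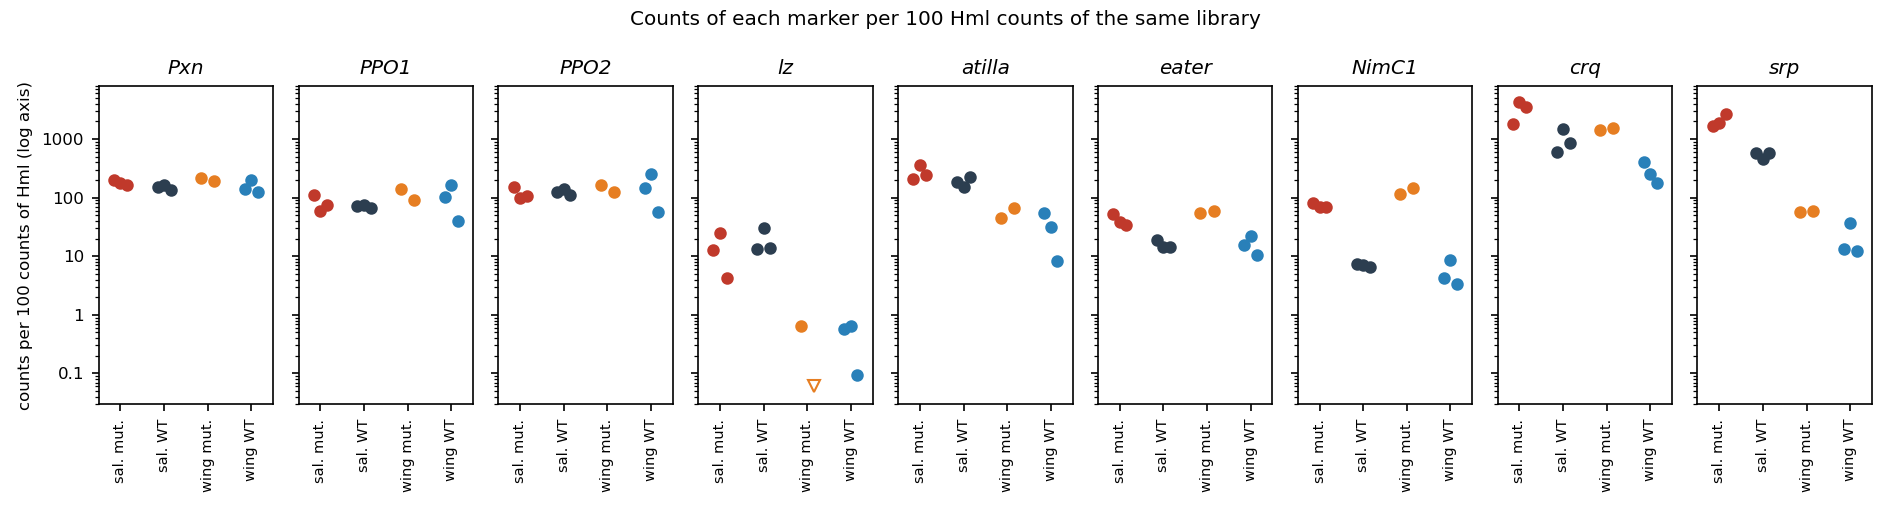
Counts of each other marker per 100 counts of Hml in the same library (log axis shared by all panels), 1 point per library, where sal. is salivary gland, mut. the dCap-D3 mutant and WT wild type. The open triangle for lz is wing mutant replicate 2 with a ratio of 0, placed at the foot of the panel. NimC1 lies at 68.3 to 145 in the mutant libraries and at 3.31 to 8.50 in the wild-type libraries, while PPO1, PPO2 and lz overlap between genotypes within each tissue.

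NimC1 lies in a cluster of Nimrod genes, and none of its tested neighbours passed the test in its direction (a comparison chosen after their values were seen). Of 11 other genes within 20 kb, 9 were tested in both tissues. None was called in wing discs, where 0.475% of all genes were. In salivary glands 1 was called, beside 10.7% of all genes. This was NimB4, a secreted Nimrod protein involved in clearing apoptotic cells, which fell to 23.7 ± 6.09 CPM in mutant salivary glands, against 56.2 ± 7.22 CPM in wild type (SD, n = 3 each; log2 fold change -1.25 ± 0.22, adjusted p = 0.0206, up to 0.103 without mutant replicate 3). He, the hemocyte surface gene hemese, lies 211 bases from NimC1. It had 33 to 85 counts in mutant salivary glands, against 119 to 138 in wild type, and 61 to 77 in mutant wing discs, against 135 to 501 in wild type. Neither comparison overlapped, and the log2 fold changes were -1.43 ± 0.46 in salivary glands (adjusted p = 0.102) and -1.98 ± 0.71 in wing discs (adjusted p = 0.474). On the other side Cyp28a5, 533 bases away, had 0.22 ± 0.36 in salivary glands (adjusted p = 0.714) and -1.16 ± 0.91 in wing discs (adjusted p = 0.9997). NimC2, the Nimrod receptor beyond it, had 0.56 ± 0.17 in salivary glands (adjusted p = 0.0955) and -0.28 ± 0.87 in wing discs (adjusted p = 0.9997). NimC2 had 28550 to 34655 counts in mutant salivary glands, against 17894 to 21759 in wild type. There its groups did not overlap, in the direction of NimC1, while in wing discs they overlapped.

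**Figure D4:**
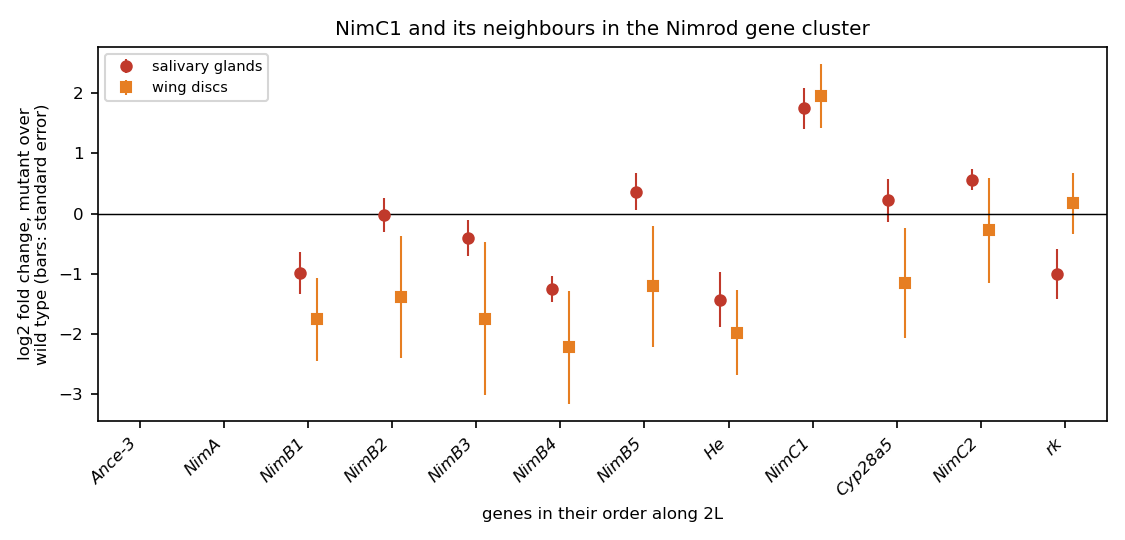
Log2 fold change of mutant over wild type (bars of 1 standard error) for NimC1 and the genes within 20 kb of it, in their order along 2L, in salivary glands (circles) and wing discs (squares). NimC1 stands at 1.75 and 1.95, and NimB1, NimB2, NimB3, NimB4 and He lie below 0 in both tissues. NimB5, Cyp28a5 and NimC2 lie above 0 in salivary glands and below 0 in wing discs, and rk the other way round. Ance-3 and NimA have no point because they did not pass the filter on low counts.

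Few other hemocyte genes passed the test. Of 29 further genes known from hemocytes, 25 were tested in salivary glands, where 0 rose and 2 fell, beside the 10.7% called among all genes, with a median log2 fold change of -0.16. At an unadjusted p under 0.05 there were 8 of the 25, against 29.4% of all genes. The 2 that fell were NimB4 and Sr-CI, a scavenger receptor of plasmatocytes, which had 0.668 ± 0.189 CPM in mutant salivary glands and 1.84 ± 0.318 CPM in wild type (SD, n = 3 each; -1.47 ± 0.31, adjusted p = 0.0368, up to 0.145 without mutant replicate 2). In wing discs 0 of 26 were called, against 0.475% of all genes, 4 had an unadjusted p under 0.05, against 9.54%, and the median was -0.40. The most abundant of them, Ppn and msn, are also expressed outside blood and had wing log2 fold changes of -0.23 ± 0.62 and -0.27 ± 0.49 (both adjusted p = 0.9997). Of the Nimrod family 1 of 9 tested genes rose in salivary glands, NimC1, and 1 fell, NimB4, against 5.71% higher and 4.96% lower among all genes, and 4 of 9 had an unadjusted p under 0.05. In wing discs 0 of 10 were called and 1, NimC1, had an unadjusted p under 0.05.

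Of 11 tested genes of melanization outside PPO1 and PPO2, 2 rose in salivary glands and 0 fell, against 5.71% and 4.96% of all genes. They were Pu, which makes the pteridine cofactor of melanin precursor synthesis and is also needed for eye pigment, with 69.8 ± 13.0 CPM in the mutant and 24.9 ± 2.05 CPM in wild type (SD, n = 3 each; 1.48 ± 0.17, adjusted p = 0.00513), and yellow-f2, a dopachrome conversion enzyme (2.19 ± 0.49, adjusted p = 0.0433, which became 0.159 when wild-type replicate 2 was left out). The fold change of yellow-f2 rests on few counts, 11 to 29 in mutant salivary glands, against 4 in every wild-type library. In salivary glands 3 of the 11 had an unadjusted p under 0.05, against 29.4% of all genes. In wing discs 0 of 11 were called, against 0.475% of all genes, and 0 had an unadjusted p under 0.05, against 9.54%. Of 4 clotting genes 1 was called in salivary glands, the marker Hml already given, against 10.7% of all genes. In wing discs 0 of 4 were called, against 0.475%. There fon, a fat body clotting factor, had 20.1 ± 15.5 CPM in the mutant (n = 2) and 54.4 ± 57.2 CPM in wild type (SD, n = 3).

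Markers of other tissues differed between genotypes as well, and their part in the results above was not tested. The counts below stand beside 10.7% of all genes called in salivary glands (5.71% higher, 4.96% lower) and 0.475% in wing discs. Of 12 muscle genes, 11 were tested in each tissue, with 0 higher and 2 lower in salivary glands and 0 higher and 1 lower in wing discs. They summed to 58.4 to 89 CPM in mutant salivary glands, against 81.0 to 91.9 CPM in wild type, and to 80.6 to 85.2 CPM in mutant wing discs, against 172 to 297 CPM in wild type. Of 7 tracheal genes 0 were higher and 2 lower in salivary glands, where they summed to 62.5 to 85.9 CPM in the mutant, against 101 to 122 CPM in wild type, and 0 were called in wing discs. Of 8 fat body genes 3 were higher and 0 lower in salivary glands, and 0 were called in wing discs. Of 4 tested gut genes 0 were higher and 1 lower in salivary glands, and 0 were called in wing discs, where the list summed to 4.84 and 7.35 CPM in the mutant, against 29.5, 10.7 and 26.5 CPM in wild type, without overlap. Of the 7 salivary gland genes 0 were higher and 2, the glue genes Sgs7 and Sgs8, were lower in salivary glands, where the summed level of the list did not overlap between genotypes. The wing disc list had 0 of 8 called in each tissue, and its summed level in salivary glands did not overlap either. None of the hemocyte markers except lz was at 0 counts in any library.

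The size of the genotype difference was not shown to depend on tissue for any marker. The tissue by genotype interaction is mutant over wild type in salivary glands minus the same in wing discs. In its test 0 of 10 markers were called by edgeR, against 0.848% of all genes. DESeq2 called 0 of 10, against 612 of 10850 genes. One marker, srp, had an unadjusted p under 0.05 (1.54 ± 0.65, adjusted p = 0.361; 0.98 without wing wild-type replicate 2), against 13% of all genes. The interaction was 1.28 ± 0.59 for Hml (adjusted p = 0.407; 0.65 without wing wild-type replicate 3), 1.14 ± 0.57 for Pxn (adjusted p = 0.453) and -0.05 ± 0.64 for NimC1 (adjusted p = 0.9999).

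Between the wild types, 4 of 10 markers were higher in salivary glands than in wing discs and 0 were lower, where 32.7% of all genes were higher, 42.4% lower and 75.1% were called in either direction. They were lz (log2 fold change of salivary over wing 6.05 ± 0.85, adjusted p = 1.66e-04), srp (5.05 ± 0.50, adjusted p = 1.78e-05), atilla (3.28 ± 0.33, adjusted p = 1.87e-05) and crq (2.21 ± 0.29, adjusted p = 1.14e-04). All 4 stayed positive and called on the other scalings tried and in the 11 fits without 1 library. The median of all genes was -0.31 on this scale, -1.47 on plain library sizes and 0.01 on relative log expression factors. Hml was at 0.20 ± 0.38 on the main scale and -0.95 on plain library sizes, Pxn at 0.20 ± 0.37 and -0.94, and PPO2 at 0.24 ± 0.42 and -0.90, so their direction changed with the scaling, as did that of eater, NimC1 and PPO1. On plain library sizes PPO1 was called lower (-1.16, adjusted p = 0.0448), and DESeq2 called NimC1 higher (1.05, adjusted p = 0.0311). Hml was called higher without wing wild-type replicate 3 (0.88, adjusted p = 0.017), and NimC1 (1.21, adjusted p = 0.044) and PPO2 (0.94, adjusted p = 0.0469) without wing wild-type replicate 2. Within libraries, lz had 4.32 to 29.9 counts per 100 Hml counts in salivary glands of both genotypes and 0 to 0.649 in wing discs.

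The genes most like Hml and PPO1 over the 11 libraries were sought among 8300 that passed the filter in both tissues, by the root mean square difference of log2 CPM centred within each tissue. The points share libraries, and likeness here is a description. Pxn was nearest to Hml, at 0.211, against a median of 1.06 over all genes. Next came Neto at 0.292, CG12971 at 0.296, CG32437 at 0.318 and CG9522 at 0.336. Their mean levels in the mutant were at most 0.243 CPM in either tissue. CG32437 had 0.00461 CPM in mutant salivary glands, against 1.70 CPM in wild type. In wing discs CG32437 had 0 CPM in the mutant, against 2.82 CPM in wild type. The pseudocount of 0.5 CPM shrinks such falls on the log2 scale, so nearness to Hml does not mean a fall of like size. PPO2 ranked 17 and PPO1 ranked 19, while atilla ranked 132, eater 290, srp 1014, crq 3664 and NimC1 8142. Nearest to PPO1 were PPO2 at 0.149, He at 0.279, alphaTub85E at 0.279, NimB4 at 0.324 and Pxn at 0.349, against a median of 0.977.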

How the data were processed

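The deposited raw counts per gene of 11 libraries were used. The submitters' processing notes name HTSeq 0.6.1, Picard 1.119, TopHat2 2.0.8b, BWA, FastQC 0.11.3, Trim Galore 0.3.3 and build BDGP6; neither strand setting nor handling of shared reads is stated there. The authors' comparison tables hold, per the file headers, log2 fold changes, a likelihood ratio score, p-values and false discovery rates; their tool is not given.

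The tissues were fitted separately in edgeR 4.0.16 (R 4.3.3), with trimmed mean of M-values scaling, filterByExpr (minimum count 10, minimum total 15) and a robust quasi-likelihood F-test over all entries; SE is the log2 fold change over the square root of F. All 11 libraries were fitted for the interaction and for the tissues. Entries without a symbol, 5013 of 16034, held 0.00629% to 0.0278% of a library's counts. DESeq2 1.42.0 served as an alternative. Exon lengths came from the BDGP6 annotation, where 9 of 10 markers lay at the deposited position and srp was matched by symbol. Libraries of a group differed beyond counting noise, with chi-square over degrees of freedom at 21.0 to 1637 per pair.

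The markers, gene lists and tests were chosen with earlier results of these data known. The naming rule took all markers, Cap-D3, up to 4 called genes per list (or the 2 of highest CPM), and 5 genes most like Hml and PPO1 (pseudocount 0.5 CPM).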

Additional observations from a re-analysis of the deposited data

How the results depend on the processing

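Genes called over the whole table numbered 961 in salivary glands, 2091 with DESeq2, 310 to 1071 without 1 library, and 92 without both wild-type libraries of high gut level (added after seeing the data). In wing discs they numbered 46, 583 with DESeq2, 140 in the fit over 11 libraries, and 0 to 45 without 1 library. For the interaction they numbered 92, 612 with DESeq2, and 7 to 262 without 1 library. Between wild-type tissues 8149 were called, and 7461 to 8351 without 1 library.

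Signs changed for log2 fold changes that had not passed the test. Without 1 library, salivary values ran from -0.70 to 0.04 for eater (0.036 without wild-type replicate 1) and from -0.19 to 0.34 for crq, and crq was -0.012 with the filter at a mean of 1 CPM. The interaction ran from -0.49 to 0.30 for NimC1 and from -0.43 to 2.38 for lz. Between tissues, plain library sizes gave -0.95 for Hml, -0.94 for Pxn, -0.41 for NimC1, -0.79 for eater and -0.90 for PPO2. Without 1 library these ran from -0.11 to 0.88 for Hml, from -0.13 to 0.62 for Pxn and from -0.019 to 0.94 for PPO2. PPO1 was -0.02, 0.29 on relative log expression factors and with DESeq2, 0.14 with the filter at 1 CPM, and -0.27 to 0.63 without 1 library. The cause was not tested. Over all alternatives the markers lost their salivary call in 31 fits and gained one in 3, gained a wing call in 9 and a call between tissues in 5. lz had no value with the filter at 1 CPM. Where 1 library of a group was left, it was taken to vary like the other groups. No paired analysis was possible because the labels give the groups no shared replicate numbers. Depth limits lz in wing discs, and 2 wing mutant libraries limit every wing test.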
